A study of Mus musculus with 102 samples.

Results

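The genes described here are 10 that mark the leptomeninges, *Dcn*, *Lum*, *Ogn*, *Igf2*, *Aldh1a2*, *Slc6a13*, *Slc22a6*, *Slc13a4*, *Mgp* and *Slc6a20a*, of 18193 genes that had a probe set naming them alone. They were taken by symbol. Each gene is represented by the probe set with the highest mean across 48 brain and cord regions, and 14 of the 45037 probe sets name a member alone. The second probe sets of *Dcn*, *Ogn*, *Igf2* and *Slc22a6* served as a check.

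The leptomeninges are the pia and arachnoid, thin membranes of fibroblast-like cells that cover the brain and spinal cord and follow the vessels that enter them. Their cells secrete collagens, small proteoglycans, growth factors and retinoic acid, and they carry transporters for amino acids and organic anions that also work in the kidney. In tissue punched from the brain, their transcripts can be present where a punch reaches the outer surface.

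Male Balb/c mice aged 7 to 8 weeks gave RNA of 51 central nervous system regions, and each region was hybridised to 2 Affymetrix expression arrays, 102 in all. The mice had been adapted to a light and dark cycle and were sampled in light and dark or in constant darkness. Each array holds RNA pooled from mice killed at 6 time points 4 h apart over 1 day, and the study's methods describe the sampling as repeated for the 2 arrays of a region. The arrays of the median eminence (ME) are listed under the same sampling day. The regions were punched from frozen slices, and whether a punch included the pia was not recorded in the sources used here.

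The retina, pituitary and pineal were set apart, and the tests rest on 96 arrays of 48 regions. By textbook anatomy, 19 of these regions were classed as reaching the outer surface of the brain or cord and 16 as deep. The other 13 were left unclassed. The values are log2 expression values. They ran from 3.88 to 14.87, the medians of the arrays lay between 7.32 and 7.46, and the arrays of a region correlated at 0.9884 to 0.9973 over all probe sets. Levels of different probe sets are not compared, since each probe set has a response of its own.

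Of the members, 3 are small leucine-rich proteoglycans that bind collagen fibrils: *Dcn* encodes decorin, *Lum* lumican and *Ogn* osteoglycin. *Igf2* encodes insulin-like growth factor 2, and *Aldh1a2* the enzyme that makes retinoic acid from retinaldehyde. *Slc6a13* is a transporter of GABA and taurine, *Slc22a6* an organic anion exchanger, *Slc13a4* a sodium and sulfate cotransporter, and *Slc6a20a* a transporter of proline and other imino acids. *Mgp* encodes matrix Gla protein, a vitamin K-dependent inhibitor of calcification. The start regions of the 5 members with a single start in the RefSeq table of mouse promoters (GRCm38.p6) are shown. Each window runs from 250 bases before to 50 after the start and is read along its own gene. Capitals mark the TATA box TATAAA, the CCAAT box with the letters CCAAT, the GC box GGGCGG, the forkhead core GTAAACA and the AP-1 site TGANTCA, each searched on both strands.
Ogn, chr13:49607765-49608064, plus strand: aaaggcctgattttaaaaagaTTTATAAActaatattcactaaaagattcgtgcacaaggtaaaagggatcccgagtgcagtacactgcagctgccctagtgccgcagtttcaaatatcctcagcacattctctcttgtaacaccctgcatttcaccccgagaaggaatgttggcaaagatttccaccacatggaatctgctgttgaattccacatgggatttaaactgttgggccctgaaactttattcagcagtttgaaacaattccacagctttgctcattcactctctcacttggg
Aldh1a2, chr9:71215539-71215838, plus strand: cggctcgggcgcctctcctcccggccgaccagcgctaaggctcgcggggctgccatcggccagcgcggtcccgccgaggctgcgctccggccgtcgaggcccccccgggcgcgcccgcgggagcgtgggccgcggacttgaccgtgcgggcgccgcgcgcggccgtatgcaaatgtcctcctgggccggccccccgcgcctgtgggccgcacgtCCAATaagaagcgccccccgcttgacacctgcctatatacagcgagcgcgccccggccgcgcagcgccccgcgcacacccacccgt
Slc22a6, chr19:8617746-8618045, plus strand: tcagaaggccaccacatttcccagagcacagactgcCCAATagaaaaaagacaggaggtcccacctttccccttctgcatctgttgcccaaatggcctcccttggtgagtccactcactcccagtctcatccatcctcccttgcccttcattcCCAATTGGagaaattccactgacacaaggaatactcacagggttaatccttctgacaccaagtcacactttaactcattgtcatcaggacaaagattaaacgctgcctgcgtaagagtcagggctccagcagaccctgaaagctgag
Slc13a4, chr6:35308077-35308376, minus strand: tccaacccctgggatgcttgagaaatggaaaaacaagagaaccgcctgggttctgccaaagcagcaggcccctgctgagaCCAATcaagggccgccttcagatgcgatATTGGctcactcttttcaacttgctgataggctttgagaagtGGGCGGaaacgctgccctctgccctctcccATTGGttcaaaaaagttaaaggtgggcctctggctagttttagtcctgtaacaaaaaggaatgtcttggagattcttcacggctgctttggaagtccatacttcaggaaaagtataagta
Slc6a20a, chr9:123678783-123679082, minus strand: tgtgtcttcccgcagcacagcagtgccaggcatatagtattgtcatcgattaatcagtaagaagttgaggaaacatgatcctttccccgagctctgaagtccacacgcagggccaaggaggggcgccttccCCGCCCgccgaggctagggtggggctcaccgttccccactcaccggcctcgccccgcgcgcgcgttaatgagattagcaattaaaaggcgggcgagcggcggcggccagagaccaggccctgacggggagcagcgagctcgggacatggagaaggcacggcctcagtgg

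The CCAAT box was found 3 times in the *Slc22a6* window, where copies on opposite strands overlap, 3 times in that of *Slc13a4* and 1 time in that of *Aldh1a2*, and 37.4% of the 32851 windows of the table hold it. The GC box was found 1 time each for *Slc13a4* and *Slc6a20a* (35.7% of all windows). In the *Ogn* window, TATAAA stood on both strands in overlapping copies, at offsets of -229 and -227 from the start (13.6% of all windows). Neither the forkhead core, found in 3.65% of all windows, nor the AP-1 site, found in 7.81%, was present in these 5 windows or in those of the 2 members with several starts, *Igf2* and *Slc6a13*. No motif was common to the 5 windows, which says only that these letters are not in them. The GC content ran from 42.3% (*Ogn*) to 78% (*Aldh1a2*).

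All 10 members were higher in the 19 surface regions than in the 16 deep ones. In a limma model of the regional means, in which the region is the unit and the spread is that between regions, each passed an adjusted p of 0.05, against 0.475% of all probe sets that were called higher in this comparison. The median difference was 1.30 on the log2 scale over the members and -0.0095 over all probe sets. The classes of regions were chosen with earlier results of these data known, so these calls are not independent of them. In bulk tissue, fewer cells of a type and less RNA per cell cannot be told apart.

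*Slc6a20a* had the largest difference of the 10. Its regional means in surface regions ran from 6.21 in the anterior spinal cord to 11.59 in the supraoptic nucleus (SO) with a median of 8.77, and in deep regions from 6.08 in the lateral septum (LS) to 7.12 in the cerebellar nucleus with a median of 6.45. Of the 19 surface regions, 17 lay above the highest deep region. Surface regions were higher by 2.13 (SE 0.31, limma adjusted p = 6.1e-05).

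*Aldh1a2* had the smallest adjusted p of the 10. Its deep regions lay between 6.61 and 7.11, while the surface regions ran from 6.75 in the motor cortex to 10.81 in SO with a median of 8.46, and 18 of 19 were above every deep region. The difference was 1.51 (SE 0.21, limma adjusted p = 2.3e-05). The same count of 18 held for *Slc6a13*, whose deep regions lay between 6.81 and 7.21 and whose surface median was 8.31, and for *Igf2*, whose deep regions lay between 8.21 and 8.70 and whose surface median was 9.60. *Slc6a13* differed by 1.15 (SE 0.18, limma adjusted p = 0.00018) and *Igf2* by 1.30 (SE 0.23, limma adjusted p = 0.00092).

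*Mgp* and *Ogn* followed with wider deep ranges. *Mgp* lay at 7.63 to 8.87 in deep regions and at a median of 9.37 in surface regions, 13 of which were above every deep region, and differed by 1.44 (SE 0.22, limma adjusted p = 0.00013). *Ogn* lay at 6.54 to 7.31 in deep regions and at a median of 8.13 in surface regions, 15 of them above every deep region, and differed by 1.31 (SE 0.22, limma adjusted p = 0.00065). The *Slc13a4* difference was 0.91 (SE 0.15, limma adjusted p = 0.00064), with 17 surface regions above the highest deep one.

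*Dcn*, *Slc22a6* and *Lum* had the largest adjusted p of the 10. *Dcn* lay at 7.40 to 9.40 in deep regions, 13 surface regions exceeded that range, and it differed by 1.71 (SE 0.36, limma adjusted p = 0.0091). *Slc22a6* moved least, with deep regions at 7.41 to 7.83, a surface median of 8.27 and a difference of 0.54 (SE 0.13, limma adjusted p = 0.027). *Lum* had the largest adjusted p of the 10, with a difference of 0.90 (SE 0.22, limma adjusted p = 0.042). The superior colliculus (SC) and pontine nucleus (Pn) had the largest median differences of the members between arrays. Without them, *Lum* had a limma adjusted p of 0.056 and the other 9 members were called, against 0.449% of all probe sets. With the second probe sets, which are dimmer, *Dcn* differed by 0.01, *Igf2* by 0.24 and *Slc22a6* by 0.14, none of them called (limma adjusted p 0.96, 0.30 and 0.41), and *Ogn* by 2.35, which was called.

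**Figure D1:**
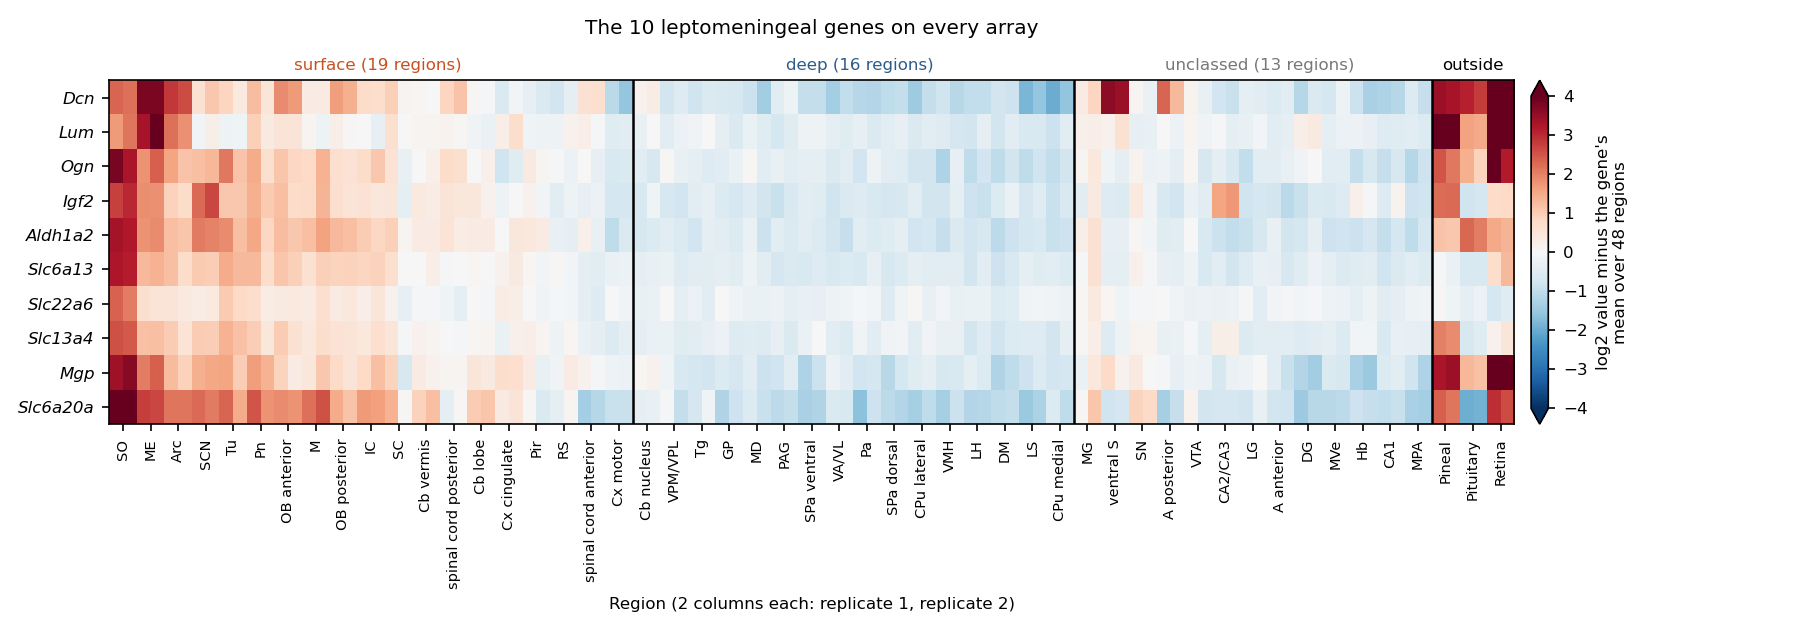
Every array of the 51 regions (2 columns a region), for each of the 10 members (rows), coloured by the log2 value minus that gene's mean over the 48 regions; colours stop at 4 in either direction. Regions are ordered within surface, deep and unclassed places by the mean of the members. Reds fill the left of the surface block, led by SO and ME, while the 16 deep regions are pale or blue for all 10 members.

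**Figure D2:**
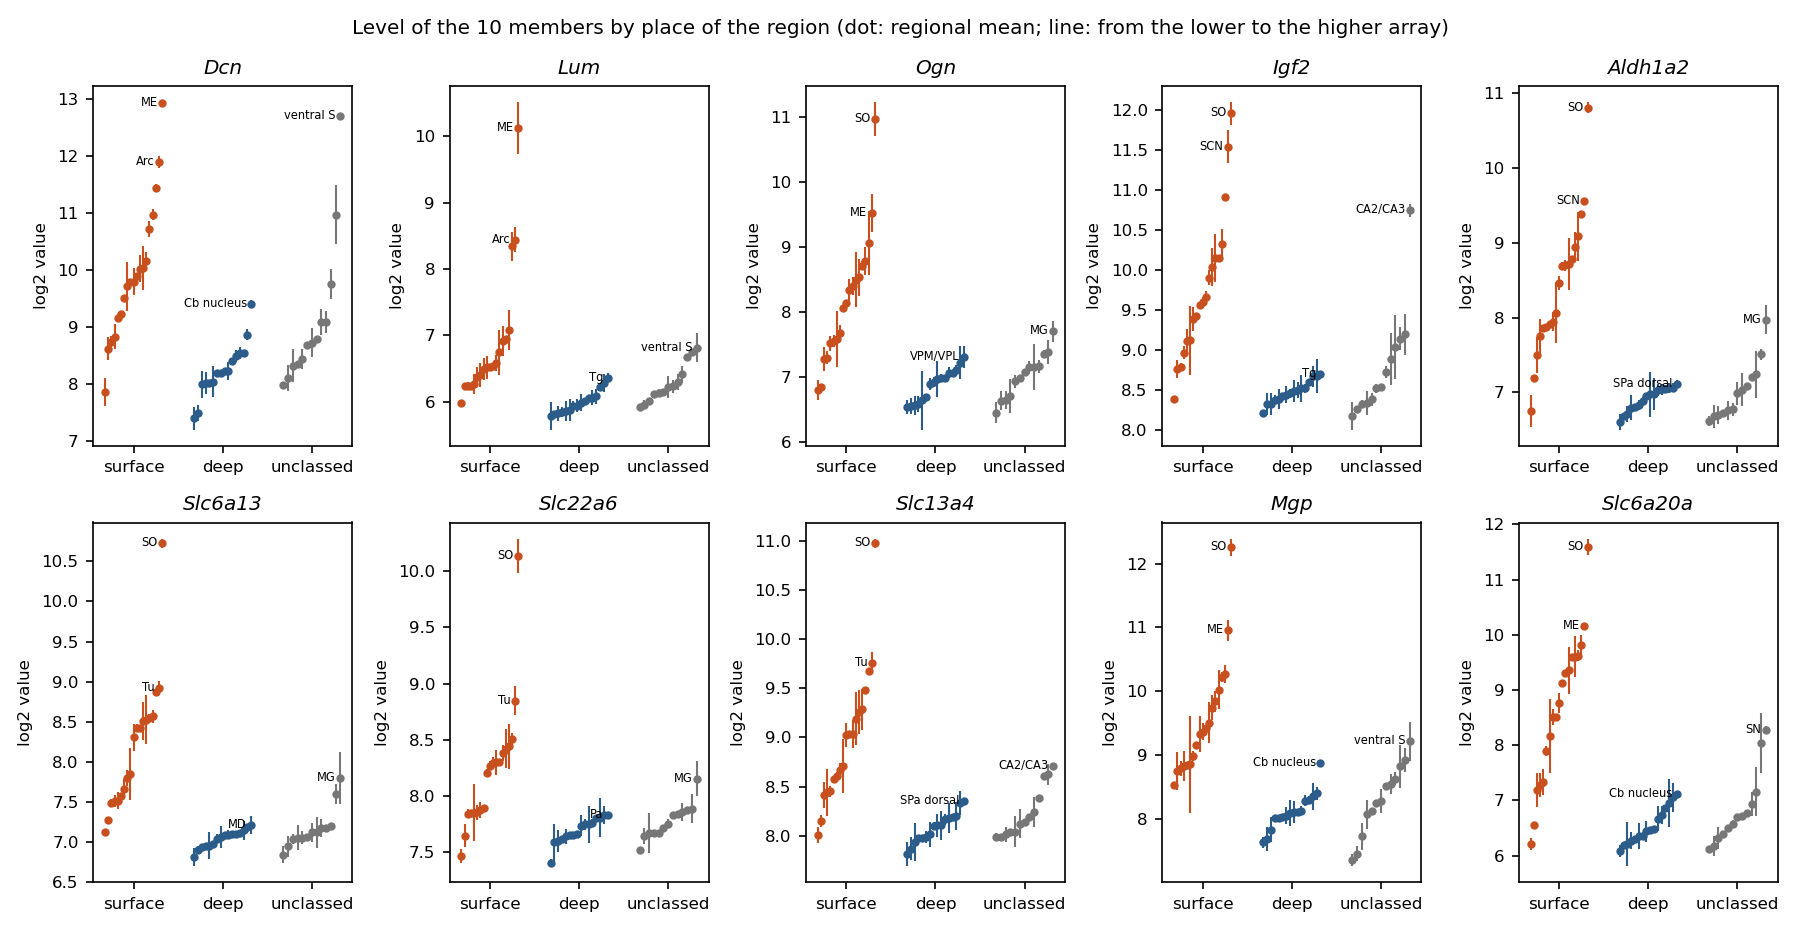
Regional means (dots, log2 values) of each member in 19 surface, 16 deep and 13 unclassed regions, with a line from the lower to the higher array. The 2 highest surface regions and the highest region of the other places are named. For *Igf2*, *Aldh1a2* and *Slc6a13*, 18 of 19 surface regions lie above every deep region.

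The surface difference was larger in value in the hypothalamus than in the telencephalon, but the contrast between them did not pass. In a joint limma fit of 5 surface and 6 deep hypothalamic regions and 7 surface and 4 deep telencephalic ones, all 10 members were called higher at the surface in the hypothalamus, by 1.10 (*Slc22a6*) to 3.84 (*Slc6a20a*), against 1.71% of all probe sets. In the telencephalon the 10 differences were positive, from 0.38 (*Slc22a6*) to 1.69 (*Slc6a20a*), with 0 of 10 called (limma adjusted p 0.092 to 0.69, 8 at an unadjusted p under 0.05) against 0.304% of all probe sets. The difference between the 2 divisions was positive for all 10 members, from 0.73 to 2.15, and 0 of 10 passed (limma adjusted p 0.099 to 0.43, 7 at an unadjusted p under 0.05), against 0.153% of all probe sets called higher. Without the hypothalamus, 14 surface and 10 deep regions remained and 4 of 10 members were called higher, against 0.0822% of all probe sets. They were *Aldh1a2* by 1.13, *Mgp* by 0.97, *Slc6a13* by 0.82 and *Slc13a4* by 0.68. In a fit within the hypothalamus only, 8 of 10 members were called higher, without *Lum* and *Slc22a6*.

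Taken region by region against the mean of the other 47, the members differed among the surface regions. All 10 were higher in SO (20.9% of all probe sets called higher there), ME (21.4%), the arcuate nucleus (Arc, 16%), Pn (19.5%) and the anterior olfactory bulb (16.4%). In the suprachiasmatic nucleus (SCN, 22.5%), the olfactory tubercle (Tu, 12.6%), the inferior colliculus (6.39%) and the posterior olfactory bulb (17.2%), 9 were higher. In each of these 4 regions *Lum* was the exception. The mammillary body (M, 9.69%) had 8, all but *Dcn* and *Lum*.

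In the 9 other surface regions 15 of 90 tests of a member were called higher, or 16.7%, which is near the 14.4% of all probe sets. SC and the posterior spinal cord had 4 members higher, the cingulate cortex 3, and the piriform cortex, the anterior spinal cord, the cerebellar vermis and the cerebellar lobe 1 each. In both cerebellar regions that gene was *Slc6a20a*, higher by 1.08 in the vermis and by 1.08 in the lobe. The retrosplenial cortex and the motor cortex had 0 of 10 called higher (limma), also 0 at an unadjusted p under 0.05 and 0 with cyclic loess normalization. In the motor cortex 7 members were lower, against 5899 of all 45037 probe sets.

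No member was called higher in any of the 16 deep regions, where 12.7% of all probe sets were called higher over these regions (limma, 0 members also at an unadjusted p under 0.05 and with cyclic loess normalization). Of the 160 tests of a member in a deep region, 127 were lower, against 13.2% for all probe sets. The dorsomedial hypothalamus (DM) had all 10 members lower, from -0.41 (*Igf2*) to -1.13 (*Mgp*), and the other deep regions had 5 to 9. These counts follow in part from the comparison itself, since the other 47 regions include SO and ME. The deep class was also chosen with earlier results of these data known. Of the 13 unclassed regions, 5 had a member higher, 3 in the ventral subiculum (ventral S, 16.6% of all probe sets), 1 in CA2/CA3 (13%) and the rest in the medial geniculate (MG, 3), the posterior amygdala (1) and the substantia nigra (1), which belong to the 11 other unclassed regions with 12.9%.

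The proteoglycans did not all share a summit, which was ME for *Dcn* and *Lum* and SO for *Ogn*. *Dcn* read 12.92 and 12.94 in ME, 12.76 and 12.64 in ventral S, 12.00 and 11.79 in Arc, and 11.50 and 11.39 in SO. The arrays of these 4 regions did not overlap, and below SO the order blurs, since the posterior amygdala read 11.48 and 10.46. The lowest region was the medial caudate putamen at 7.20 and 7.59.

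*Lum* was far narrower. It read 9.73 and 10.51 in ME, 8.63 and 8.25 in Arc and 8.13 and 8.56 in SO, and no other region exceeded 7.38. The arrays of ME stood above those of every other region, whereas those of Arc and SO overlapped. In SCN *Lum* read close to its mean elsewhere, with a difference of 0.06 (SE 0.14, limma adjusted p = 0.72).

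*Ogn* put SO first, at 11.22 and 10.71, followed by ME at 9.23 and 9.82 and Tu at 9.55 and 8.58. SO stood clear of ME, and ME and Tu overlapped. Its second probe set also put SO first and correlated with the first at 0.974 over the 48 regions.

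*Dcn* was also high where few other leptomeningeal genes were. In ventral S it was higher than in the other regions by 3.60 (SE 0.18, limma adjusted p = 6.1e-24), *Mgp* by 0.48 and *Lum* by 0.39. In the same region *Slc6a20a* was lower, with a difference of -0.75, as were *Igf2* at -0.54, *Slc13a4* at -0.37 and *Slc6a13* at -0.37. Of 25 other leptomeningeal and fibroblast genes, 1 was higher and 10 were lower there. Of all 45037 probe sets, 7497 were higher and 9025 lower in ventral S. In the posterior amygdala *Dcn* was higher by 1.84 and 5 members were lower, against 7850 of all 45037 probe sets lower. The second *Dcn* probe set was dim and nearly flat, with regional means of 6.08 to 7.02 and a correlation of 0.51 with the first. It had its highest value in ventral S too. In SCN its difference was -0.27, opposite to the 0.87 of the first probe set, so the *Dcn* values rest on 1 probe set.

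*Igf2*, the growth factor, had the most separate order at the top. It read 11.81 and 12.09 in SO, 11.33 and 11.74 in SCN, 10.92 and 10.90 in ME, 10.67 and 10.82 in CA2/CA3, and 10.51 and 10.14 in Pn. No array of these 5 regions overlapped with the next in order. CA2/CA3 is not classed as a surface region, and *Igf2* was the only member called higher there, by 1.70 (SE 0.15, limma adjusted p = 2.3e-14). In the same region 6 members were lower, against 6182 of all 45037 probe sets.

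Choroid plexus genes moved with *Igf2* in CA2/CA3. The choroid plexus, which secretes cerebrospinal fluid and lies beside the hippocampus in the ventricle, is also a source of *Igf2*. Of 13 choroid plexus genes, 12 were higher in CA2/CA3 with a median of 1.60, among them *Ttr* by 4.72, *Sostdc1* by 3.83, *Kcne2* by 2.85 and *Folr1* by 2.25. The mean of the list was 8.75 and 8.89 on the CA2/CA3 arrays, the second of which was the highest of the 96, whose median was 7.07. The part of choroid plexus in the *Igf2* value was not tested. In SO, ME and SCN, by comparison, 3, 3 and 1 of these 13 genes were higher. *Otx2* was lower in these regions, at -0.65, -0.71 and -0.80. In SCN *Kl*, *Folr1*, *Cldn2*, *Slc4a5*, *Aqp1*, *Kcne2* and *Steap1* were lower too.

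*Aldh1a2*, the retinoic acid enzyme, read 10.88 and 10.73 in SO, 9.60 and 9.51 in SCN and 9.34 and 9.43 in ME. The arrays of these regions did not overlap. Tu, at 9.42 and 8.76, overlapped with ME. The lowest region was DM at 6.50 and 6.72.

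By regional mean, 3 of the 4 transporters had SO first and Tu second, while *Slc6a20a* had SO first and Tu at rank 7. *Slc6a13* read 10.78 and 10.67 in SO and 9.01 and 8.84 in Tu, and *Slc22a6* 10.29 and 9.98 in SO and 8.97 and 8.72 in Tu. *Slc13a4* read 11.02 and 10.93 in SO and 9.87 and 9.65 in Tu. SO did not overlap with Tu for any of them. For *Slc6a13* the arrays of Tu and ME (8.84 and 8.91) overlapped, as they did for *Slc13a4* (9.67 and 9.69 in ME). For *Slc22a6* Tu and ME stood apart.

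*Slc6a20a* read 11.45 and 11.74 in SO, 10.21 and 10.12 in ME and 9.65 and 9.99 in M. These stood apart in that order. It was lowest in LS at 5.98 and 6.18. *Mgp* read 12.12 and 12.39 in SO, 10.79 and 11.12 in ME and 10.41 and 10.13 in Pn, again without overlap, and was lowest in the habenula at 7.45 and 7.26.

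SO was thus the highest of the 48 regions for 8 members and ME for *Dcn* and *Lum*. Against the mean of the other 47 regions, SO was higher by 1.96 (*Lum*, SE 0.14) to 4.23 (*Slc6a20a*, SE 0.21), ME by 0.59 (*Slc22a6*, SE 0.09) to 3.84 (*Dcn*, SE 0.18), and SCN, for the 9 members called, by 0.35 (*Slc22a6*, SE 0.09) to 2.51 (*Igf2*, SE 0.15). The largest limma adjusted p among these was 6.2e-07 in ME and 0.0019 in SCN, both for *Slc22a6*. With its second probe set, which is dim, *Slc22a6* differed by 0.07 in ME and was not called. The regions were collected in 4 sampling periods. Against the regions of its own period only, 10 members were called in SO (16 regions) and 10 in ME (4 regions), and 8 in SCN (7 regions), against 19.3%, 15.8% and 19.3% of all probe sets called higher. In SCN within its period, the *Dcn* difference was 0.42 with an adjusted p of 0.062.

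**Figure D3:**
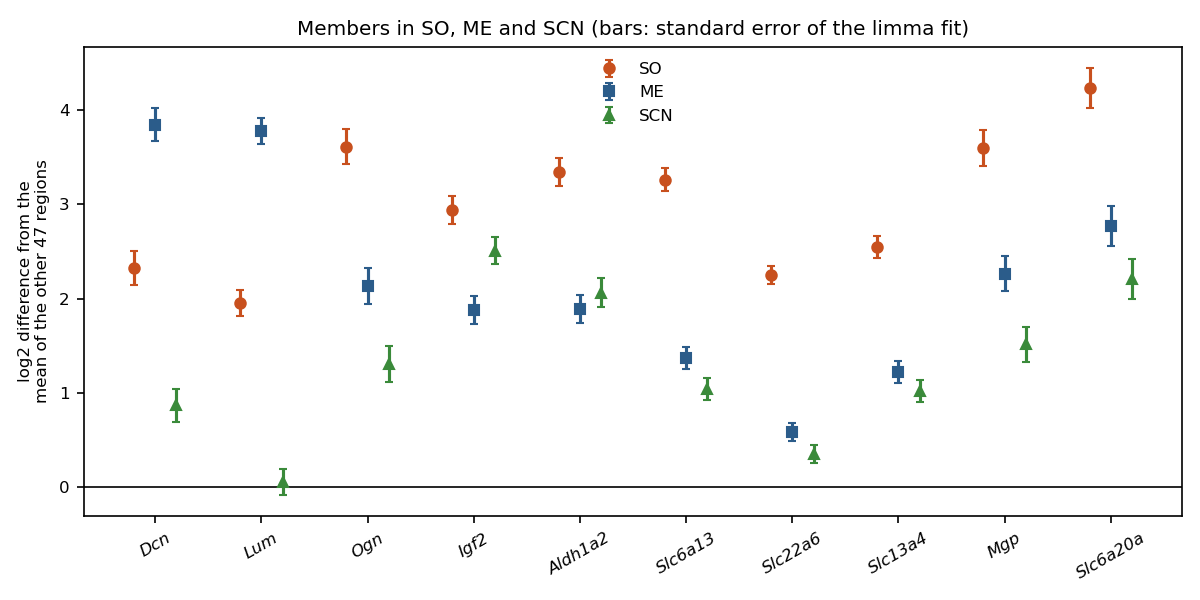
Difference of SO (circles), ME (squares) and SCN (triangles) from the mean of the other 47 regions (log2, vertical axis) for each member, with the standard error of the limma fit as bars. ME lies above SO for *Dcn* and *Lum* and below it for the other 8 members, and SCN is at 0.06 for *Lum*.

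Compared directly, SO and ME differed in the make-up of the profile. In SO minus ME, 8 members were higher (17.8% of all probe sets) and 2 lower (18.3%). *Slc6a13* was higher in SO by 1.85 (SE 0.16, limma adjusted p = 9.5e-14), *Slc22a6* by 1.63 and *Ogn* by 1.44, while *Lum* was lower at -1.78 (SE 0.19, limma adjusted p = 6.1e-11) and *Dcn* at -1.49 (SE 0.25, limma adjusted p = 2.3e-06). The second *Dcn* probe set gave 0.12 in SO minus ME (adjusted p = 0.40).

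SO exceeded SCN for 9 members (29.1% of all probe sets higher, 22.8% lower), most for *Ogn* at 2.26 and *Slc6a13* at 2.17. *Igf2* was 0.42 higher in SO (SE 0.21), which did not pass (limma adjusted p = 0.086). With cyclic loess normalization the same difference was 0.58 with a limma adjusted p of 0.023, and with the second probe set 0.56 with 0.0088.

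ME exceeded SCN mainly in the proteoglycans. *Lum* was higher in ME by 3.63 (SE 0.19, limma adjusted p = 1.2e-22), *Dcn* by 2.91, *Ogn* by 0.81 and *Mgp* by 0.73, 4 members in all against 21.7% of all probe sets. *Igf2* was lower at -0.62 (limma adjusted p = 0.014), 1 member against 18%. *Aldh1a2* differed by -0.17 (SE 0.21) and the 4 transporters by 0.20 to 0.54 (limma adjusted p 0.11 to 0.34). Calls other than those of *Dcn* and *Lum* rested on single arrays. Without replicate 2 of ME only *Dcn* and *Lum* were called, without replicate 1 of ME 4 members, without replicate 1 of SCN 3 and without replicate 2 of SCN 4. *Igf2* lost its call without either ME array, without replicate 2 of SCN and with cyclic loess normalization (limma adjusted p = 0.053).

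In some regions the arrays differed for all members in the same direction. In SC all 10 were higher in replicate 1, by a median of 0.83, while the median absolute difference between the SC arrays was 0.0948 over all probe sets. *Mgp* and *Slc6a20a* moved most in SC, and the mean of the 10 members was 8.69 and 7.83 on the SC arrays. The mean of the 25 other leptomeningeal and fibroblast genes was 7.95 and 7.54 there, and that of 10 mural genes 8.38 and 8.09.

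In Pn all 10 members were higher in replicate 1 as well, by a median of 0.60 (0.103 in absolute size over all probe sets), and in MG all 10 were higher in replicate 2, with a median of replicate 1 minus replicate 2 of -0.45 (0.102 in absolute size over all probe sets). The 25 leptomeningeal and fibroblast genes went along, with means of 8.52 and 8.10 in Pn and of 7.64 and 7.84 in MG. All 10 members were also higher in replicate 1 in the mediodorsal thalamic nucleus (MD), by a median of 0.27, and in the piriform cortex (Pir), by 0.22. In CA1 all 10 were higher in replicate 2, with a median of replicate 1 minus replicate 2 of -0.16. In Tu, Arc and the ventral tegmental area, 9 members were higher in replicate 1, by medians of 0.36, 0.27 and 0.35. In M 8 were higher in replicate 2, with a median of replicate 1 minus replicate 2 of -0.34. In SO, ME and SCN neither array was higher for more than 7 members, and the mean of the members was 10.92 and 10.92 in SO, 10.02 and 10.19 in ME and 9.19 and 9.31 in SCN.

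**Figure D4:**
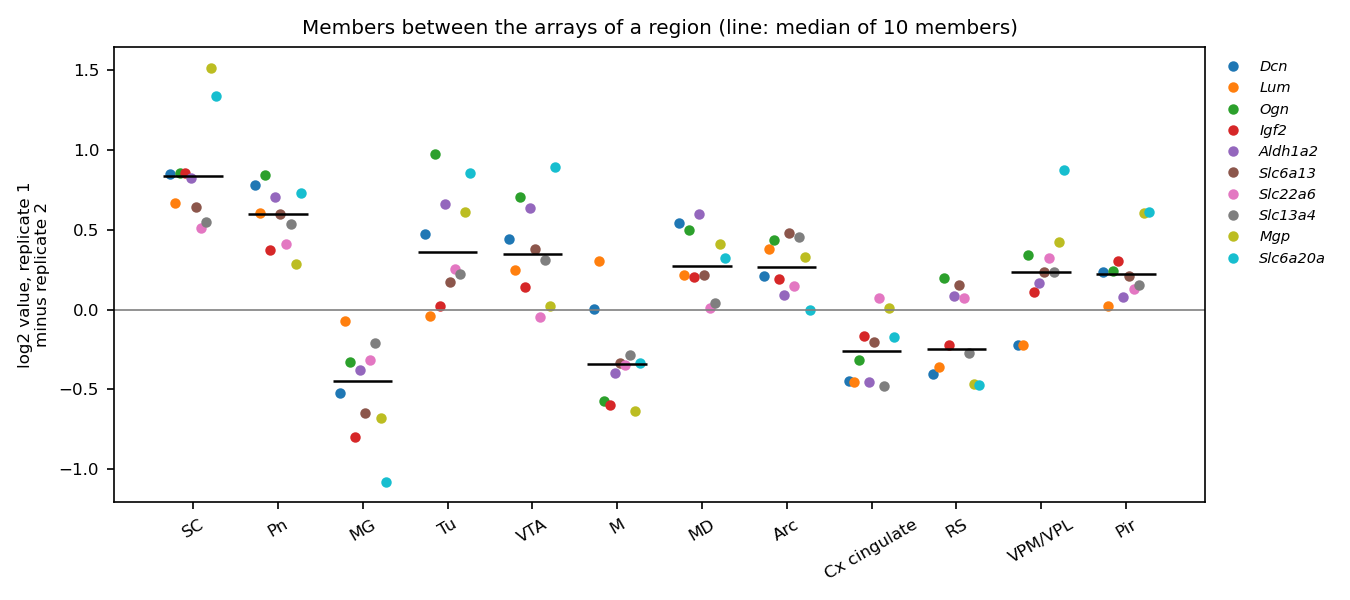
Replicate 1 minus replicate 2 (log2, vertical axis) for each member in the 12 regions with the largest median difference between arrays. Dots are members and black lines their median. All 10 dots lie above 0 in SC, Pn, MD and Pir and below 0 in MG.

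Across the 48 regions the members followed each other. Pearson's r of their regional means ran from 0.57 to 0.96 with a median of 0.86 over the 45 pairs, and without SO and ME from 0.45 to 0.95 with a median of 0.80. These are descriptions over regions that share arrays and normalization. With the mean of the other 9, *Aldh1a2* had r = 0.96, *Slc6a13* 0.96 and *Ogn* 0.95, and *Dcn* at 0.73 and *Lum* at 0.76 were the least alike.

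The 10 genes outside the list whose pattern was most like the mean of the members were *Ifitm2*, *Fmod*, *Pcolce*, *Cd74*, *Nupr1*, *Serping1*, *Thbd*, *H2-Aa*, *H2-Ea* and *Col3a1*, with r from 0.96 to 0.94 over 48 regions. *Fmod* encodes the proteoglycan fibromodulin, *Pcolce* an enhancer of procollagen processing, *Serping1* the C1 inhibitor, *Thbd* thrombomodulin and *Col3a1* a fibrillar collagen. *Cd74*, *H2-Aa* and *H2-Ea* belong to MHC class II antigen presentation, and *Ifitm2* is an interferon-induced membrane protein. Without SO and ME, 9 of the 10 stayed among the first 10, and *Fn1*, fibronectin, took the place of *H2-Ea*.

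The leptomeningeal label was checked on 25 other genes of these membranes and of fibroblasts. In SO 24 were higher with a median of 2.17, in ME 22 with a median of 0.98, and in SCN 22, with 1 lower, and a median of 1.22. In SO, *Efemp1*, an extracellular matrix glycoprotein, was higher by 3.78, *Foxd1*, a forkhead factor of meningeal and stromal cells, by 3.58, *Islr* by 3.48 and *Serping1* by 3.32. The exception in SO was *Cdh11*, at -0.13 (limma adjusted p = 0.35). Between surface and deep regions 14 of 25 were called higher, with a median of 0.64, led by *Islr* at 2.44 and *Efemp1* at 1.87, and none lower at this threshold. The list was fixed with earlier results of these data known and is not independent of them.

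Among the relatives of the proteoglycans, 6 of 12 were higher in SO and 6 of 12 in ME, and 2, *Fmod* and *Bgn*, between surface and deep regions. *Fmod* was higher in SO by 2.91, *Omd*, osteomodulin, by 2.63, *Bgn*, biglycan, by 2.20 and *Aspn*, asporin, by 1.39. The cornea and cartilage members *Kera* and *Epyc* were at -0.09 and -0.10 in SO and did not pass. The median of the 12 was 0.31 in SO. In SCN 4 were higher and 6 lower.

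In the insulin-like growth factor system, 8 of 9 genes were higher in SO and 7 of 9 in ME. The binding proteins led, with *Igfbp2* higher in SO by 2.38, *Igfbp6* by 2.27, *Igfbp5* by 1.39 and *Igfbp7* by 1.26. *Igf2r*, the receptor that clears the factor, was higher in SO by 0.23 and in ME by 0.35. *Igf1* was at 0.26 in SO (adjusted p = 0.20). Between surface and deep regions *Igfbp2*, at 1.69, and *Igfbp6*, at 1.67, were called.

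In the retinoic acid pathway, 5 of 11 were higher in SO and 8 of 11 in ME. *Crabp2*, a carrier that brings retinoic acid to its nuclear receptors, was higher in SO by 3.49 and in ME by 1.81. It was the 1 gene of the 11 called between surface and deep regions, at 1.03. *Aldh1a1*, a related enzyme, was higher by 1.63 in SO and 2.54 in ME, and *Cyp26b1*, which degrades retinoic acid, by 1.14 in SO. The receptors *Rara*, *Rarb* and *Rarg* were at 0.12 to 0.20 in SO and did not pass.

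Of the 13 related solute carriers, 8 were higher in SO and 5 between surface and deep regions. *Slc47a1*, an exporter of organic cations, was higher in SO by 3.67, *Slc13a3*, a dicarboxylate carrier, by 3.35 and *Slc22a8*, an organic anion carrier of the same family as *Slc22a6*, by 3.16. *Slc6a12*, the betaine and GABA transporter beside *Slc6a13* in its family, was higher by 1.52. *Slc6a20b*, *Slc13a1* and *Slc13a5* lay between -0.25 and 0.20 in SO and did not pass. *Slc6a11*, a GABA transporter of astrocytes, was lower in ME, at -0.97.

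Of 6 genes that make or share the matrix Gla protein pathway, 4 were higher and 1 lower in SO, and the same counts held in ME. *Bmp4*, a ligand that matrix Gla protein binds, was higher in SO by 1.91, and *Vkorc1*, which recycles vitamin K, by 0.92. *Gas6*, another vitamin K-dependent protein, was lower in SO at -0.26 and in ME at -0.34.

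Vessel genes also stood out in SO. All 11 endothelial genes were higher there with a median of 0.95, led by *Vwf* at 3.35, *Pecam1* at 1.81 and *Abcb1a* at 1.29, and 8 of 10 mural genes with a median of 0.74. The smooth muscle genes *Tagln* and *Acta2* were higher by 3.79 and 3.35. The mean of the endothelial list was 9.01 and 8.95 in SO, against a median of 7.91 over 96 arrays. In ME 4 endothelial genes were higher and 4 lower, and in SCN 2 and 1. In SO all 11 microglia and macrophage genes were higher too, with *Pf4* at 2.09 and *Mrc1* at 1.92, both known from macrophages at the border of the brain, as were all 9 oligodendrocyte genes and 3 of 4 blood genes. The part of vessels, macrophages, oligodendrocytes or blood in the SO values of the members was not tested.

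Astrocyte genes were high in SCN and SO. Of 10, 8 were higher in SCN with a median of 0.70, among them *Gfap*, the astrocyte filament protein, at 3.68 and *Gjb6*, a gap junction protein, at 1.22, and in SO 7 were higher and 2 lower with a median of 0.41, with *Gfap* at 2.43, *Aqp4*, a water channel, at 2.20 and *Gjb6* at 1.84. *Gjb6* is also in the list of leptomeningeal and fibroblast genes. The mean of the astrocyte list was 11.83 and 11.78 in SCN and 11.72 and 11.57 in SO, against a median of 10.92 over the 96 arrays. All 9 oligodendrocyte genes were higher in SCN too, with a median of 1.70. In ME 4 astrocyte genes were higher and 4 lower. The part of astrocytes or oligodendrocytes in the SCN and SO values of the members was not tested.

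Anterior pituitary, ependymal and macrophage genes moved in ME as well. Of 9 anterior pituitary genes 7 were higher, with *Cga* at 5.92, *Pomc* at 3.90 and *Tshb* at 3.55, while *Gh* and *Prl* were at 0.27 and 0.08 and did not pass. The mean of the list was 9.46 and 9.53 in ME, against a median of 7.62 over the 96 arrays. Of 10 ependymal genes 8 were higher, with *Dynlrb2* at 2.05, while *Spag6* was lower at -0.15. Of the 11 microglia and macrophage genes 7 were higher and 1 lower in ME, with *C1qb* at 1.04 and *C1qa* at 1.00. Pituitary tissue itself read 12.28 and 11.97 for *Dcn* and 8.05 and 7.94 for *Lum*, and 5.49 and 5.55 for *Slc6a20a*, which was below every array of the 48 regions. The part of pituitary tissue, ependyma or macrophages in the ME values was not tested.

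Neuronal genes were lower in both regions. Of 10, 8 were lower in SO with a median of -0.79 (20.3% of all probe sets lower) and 8 in ME with a median of -1.17 (20.4%). *Rbfox3*, a nuclear protein of neurons, fell by 1.81 in SO and *Nefl*, a neurofilament, fell by 2.72 in ME. In SCN 3 were higher and 5 lower. The mean of the neuronal list was 11.31 and 11.24 in SO and 10.91 and 10.91 in ME, where the median of 96 arrays was 12.10.

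**Figure D5:**
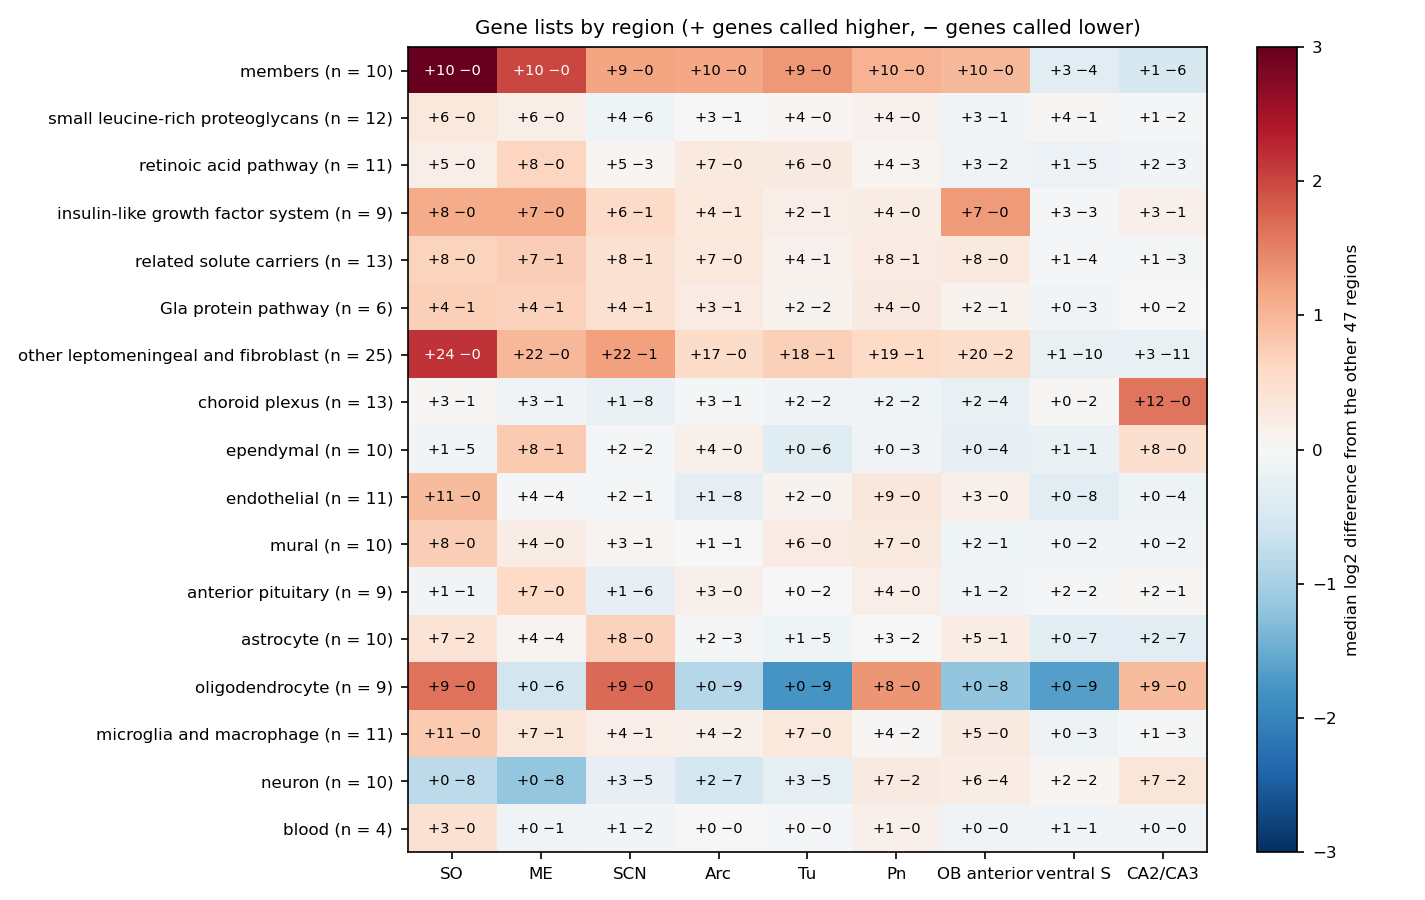
Median log2 difference from the mean of the other 47 regions (colour) for the members and 16 lists of pathway and cell type genes (rows) in 9 regions (columns). Each cell gives the number of genes called higher and lower at an adjusted p of 0.05. The members and the other leptomeningeal and fibroblast genes are red in SO to the anterior olfactory bulb, and the choroid plexus row is red in CA2/CA3.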

How the data were processed

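RNA from 51 regions was hybridised to 102 Affymetrix mouse expression arrays, which the authors summarised by RMA (version not given in the sources used here). The deposited values are log2 expression values. RMA adjusts every array to a common distribution, so values are relative to the other arrays, and arrays give no counts. Their number limits the precision, and p-values of the region model measure the spread between 2 pools a region, which may in part be technical. The p-values of surface minus deep measure the spread between regional means. The 64 control probe sets were left out. Genes were named through the annotation of the array; 34945 probe sets name 1 gene, and 14 genes of the lists had no probe set of their own.

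The package limma 3.58.1 (R 4.3.3) tested differences over all 45037 probe sets, with Benjamini-Hochberg adjustment and a threshold of 0.05. The region model had 1 coefficient per region for the 96 arrays of 48 regions (48 residual degrees of freedom). Surface and deep regions were compared on the 48 regional means. Unclassed regions entered only through the spread. The members, the lists and the classes of regions were chosen with earlier results of these data known. The rule for named genes took all members, up to 4 genes of a list with the largest difference, those that passed in the other direction, and the 10 genes most like the members; a few further genes of the lists were named after their values were seen. The scripts were tested on simulated data.

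The alternatives were cyclic loess normalization, a robust fit with a variance trend, a filter that keeps probe sets whose highest region reaches 7, the second probe set of a gene, a replicate block, sampling days, sampling periods, other sets of regions and leaving out each array. The sets without SC and Pn and without the hypothalamus were chosen after seeing the data. Sequences are from the RefSeq tables of GRCm38.p6. Figures were drawn with matplotlib 3.10.9.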

Additional observations from a re-analysis of the deposited data

Results flagged for a closer look

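Of the tissues that no comparison used, some exceeded all 96 arrays of the 48 regions on both of their arrays, which drew attention to them. *Dcn* read 14.34 and 13.96 in the retina, where the highest of the 96 arrays was 12.94. *Lum* read 13.04 and 12.01 in the retina and 11.28 and 11.17 in the pineal, against 10.51. *Mgp* read 13.03 and 13.06 in the retina, against 12.39. The other members lay within or below the range of the 96 arrays in these tissues, apart from 1 of the 2 retina arrays for *Ogn*, at 11.98 against 11.22. No test was made on these tissues.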

How the results depend on the processing

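Of 668 values of single members under an alternative, 624 kept their direction and their side of the threshold, 37 lost and 3 gained a call, and 4 changed sign. With the second probe set, *Dcn* in SCN was -0.27 (adjusted p = 0.0019), *Dcn* in SO minus ME 0.12 and *Slc22a6* in ME minus SCN -0.067, and ME minus SCN kept 3 calls. The cause was not tested. *Lum* in SCN, not called, ran from -0.11 to 0.23 with either SCN array left out. With single arrays left out, the count in ME minus SCN ran from 2 to 4 of 5. Surface minus deep had 4 calls without the hypothalamus and 0 within the telencephalon only (limma, 8 at an unadjusted p under 0.05), where fewer regions entered the fit. Without replicate 1 it had 9, as *Lum* had an adjusted p of 0.12, and within the hypothalamus only it had 8, without *Lum* and *Slc22a6*. Without SO, ME and SCN it had 10. Calls of a member as higher numbered 118 over the 48 regions, and 118 with cyclic loess normalization. The equal totals hide shifts: MG went from 3 to 2, SC from 4 to 3, and the cerebellar vermis and lobe from 1 to 2 each.

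Of 1128 pairs of regions, 282 had replicate deviations that correlated above 0.1 and 234 under -0.1, with a mean of 0.0085. The mean showed no common direction by replicate number. Positive and negative values can cancel in it, so pairing within sets of regions was not excluded. With a replicate block the counts were 10 in SO, 10 in ME, 9 in SCN, 10 in SO minus ME, 9 in SO minus SCN, 5 in ME minus SCN and 10 in surface minus deep with the region as a random block. Sampling day entered as a random block, since the arrays of ME share a day.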
